A study of Homo sapiens with 16 samples.

Results

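The comparison set 3 libraries of HaCaT cells expressing YAP5SA against 3 libraries of HaCaT cells in which YAP1 had been knocked down by siRNA (siYAP). These are 6 of the 16 libraries of the study, taken by their sample labels alone. HaCaT is an immortalised human keratinocyte line, and YAP5SA is a mutant form of YAP1, named YAP1 S5A in the labels, that is constitutively active. The YAP5SA cells received an expression vector and no siRNA, and the siYAP cells received YAP1 siRNA and no expression vector, so the change of YAP and the change of delivery cannot be told apart. A HaCaT library with the empty vector and a HaCaT library with a control siRNA (siCTRL) served to mark genes that already differed between the controls, and in a separate model their difference was taken off. Each of these is a single culture, so the spread between control cultures is unknown. All cells were kept in DMEM with 10% FCS. The siRNA was a pool by the methods of the study and was transfected 2 times, 24 h apart, with RNA taken 48 h after the second transfection. No labelled time is given for the vector. The methods call the triplicates biological, and p-values measure the spread between these cultures only. The other 8 libraries are the same groups in A431, an epidermoid carcinoma line, and serve here to show where HaCaT differed from it.

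YAP and its paralogue TAZ (WWTR1) are transcriptional coactivators with no DNA-binding domain of their own. They enter the nucleus when the Hippo kinases, MST and LATS, are inactive, and they act on enhancers and promoters mainly through the TEAD factors, whose core recognition sequence is GGAATG. In skin, nuclear YAP and TAZ are a feature of the basal layer, where cells contact the basement membrane and divide, and Hippo components such as LATS2, AMOTL2 and NF2 can themselves be induced in a feedback loop.

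YAP1 itself was at 22.9, 21.2 and 21.4 CPM with siYAP, 254 in siCTRL, 426 with the empty vector and 7641, 22690 and 10230 with YAP5SA. CPM is the count per 1e6 counts of the library, scaled between libraries by the trimmed mean of M-values (TMM). Knockdown, controls and construct were far apart, and among the YAP5SA libraries replicate 2 was highest. The fitted YAP5SA minus siYAP difference was 9.28 on the log2 scale (SE 0.489, edgeR quasi-likelihood adjusted p = 1.63e-06). The count does not separate the construct from the endogenous transcript. WWTR1, which encodes TAZ, was at 107, 112 and 124 CPM with siYAP, 81.2 in siCTRL, 85.9 with the empty vector and 108, 79.7 and 91.7 with YAP5SA. Its groups overlapped and it was not called (log2 difference -0.30, SE 0.132, adjusted p = 0.075), whereas it was called lower without YAP5SA replicate 1 (-0.40, adjusted p = 0.0151), with all 16 libraries in the model (-0.345, adjusted p = 0.0132) and with more than 10 counts in each library (-0.32, adjusted p = 0.0487).

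Depth was between 18115624 and 39980642 estimated counts in the 8 HaCaT libraries, so a count of 3 corresponds to 0.0777 to 0.164 CPM on the TMM scale. The YAP5SA libraries held 36919543 to 39980642 counts and the empty vector 34382933. The siYAP libraries held 20204492 to 28729899 and siCTRL 18115624, so depth differed along with delivery. The first principal component held 88.3% of the variance and separated the groups, and the second (5.4%) set YAP5SA replicate 2 apart. All 10 keratinocyte markers listed were present, with 4 called higher with YAP5SA and 3 lower. Their summed level was between 4581 and 5382 CPM with siYAP and between 6478 and 8891 with YAP5SA. It was 3826 CPM in siCTRL, while the empty vector library, at 9612 CPM, was above every YAP5SA library. KRT5 was at 349 to 540 CPM with siYAP and at 938 to 2327 with YAP5SA. TP63, the basal lineage factor, was uncalled at 182 to 291 CPM. Most defining markers of other cell types, such as POSTN and TYR, were at or near 0. A few such genes were present at low levels. The summed level of 10 fibroblast markers was between 75.8 and 100.5 CPM with siYAP and between 19.1 and 36.5 with YAP5SA, with siCTRL at 106 and the empty vector at 29.8. For 7 melanocyte markers it was between 102 and 116 CPM with siYAP and between 34.5 and 63.2 with YAP5SA, with siCTRL at 45.2 and the empty vector at 62.6, most of it MITF. For 5 endothelial markers it was between 15.8 and 19.4 CPM with siYAP and between 1.55 and 2.49 with YAP5SA, with siCTRL at 59.1 and the empty vector at 2.12, and for 7 leukocyte markers between 12.6 and 17.6 CPM with siYAP and between 24.4 and 35.8 with YAP5SA, with siCTRL at 16.97 and the empty vector at 12.6, most of it CD68. The fibroblast genes DCN and LUM, which encode matrix proteoglycans, lay between 6.06 and 13.9 CPM with siYAP and between 0 and 0.104 with YAP5SA, and were at 0 in the empty vector library. CDH5, the cadherin of endothelial junctions, was at 51.7 CPM in siCTRL, 11.9 to 13.4 with siYAP and 0.322 to 1.01 with YAP5SA. In bulk RNA fewer cells of a type and less RNA per cell cannot be told apart, and the part of these markers in the results was not tested.

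Of 14631 genes tested, 8364 (57.2%) were called, meaning an adjusted p under 0.05 and a logCPM above 1, and of these 4592 (31.4% of those tested) were higher with YAP5SA and 3772 (25.8%) lower. The median log2 difference over all genes tested was -0.02. A difference of at least 1 on the log2 scale was found for 4489 called genes, 2466 higher and 2023 lower. The levels of the groups did not overlap for 10595 genes (72.4%). The 2 control libraries also differed widely, by at least 1 on the log2(CPM + 1) scale, with 2050 genes (14.0%) higher and 2011 (13.7%) lower in the empty vector. A called gene was therefore marked where the controls differed by at least 1 in the direction of its YAP5SA minus siYAP difference. Such marks fell on 3246 called genes (38.8%), and on 2645 of the 4489 with a difference of at least 1 (58.9%). The share depends on this limit: at a control difference of 0.58 the marks fell on 5119 called genes (61.2%), and on 5397 (64.5%) where the control difference was at least 0.5 of the treated one. Across genes the treated and the control differences correlated with a Pearson's r of 0.71 and a Spearman's rho of 0.75, a description over 14631 genes of the same 8 libraries. The other 5118 called genes (2827 higher, 2291 lower) carried no mark. In 1262 called genes both controls lay between the siYAP and the YAP5SA libraries. In 54 the controls differed by at least 1 in the opposite direction. Unless taken off in the model, control differences and control medians are on the log2(CPM + 1) scale. For low genes that scale is smaller than the fitted one. The marks cover a continuum, with GLTP just below the limit at 0.9998 and C11orf73 just above it at 1.0009.

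**Figure D1:**
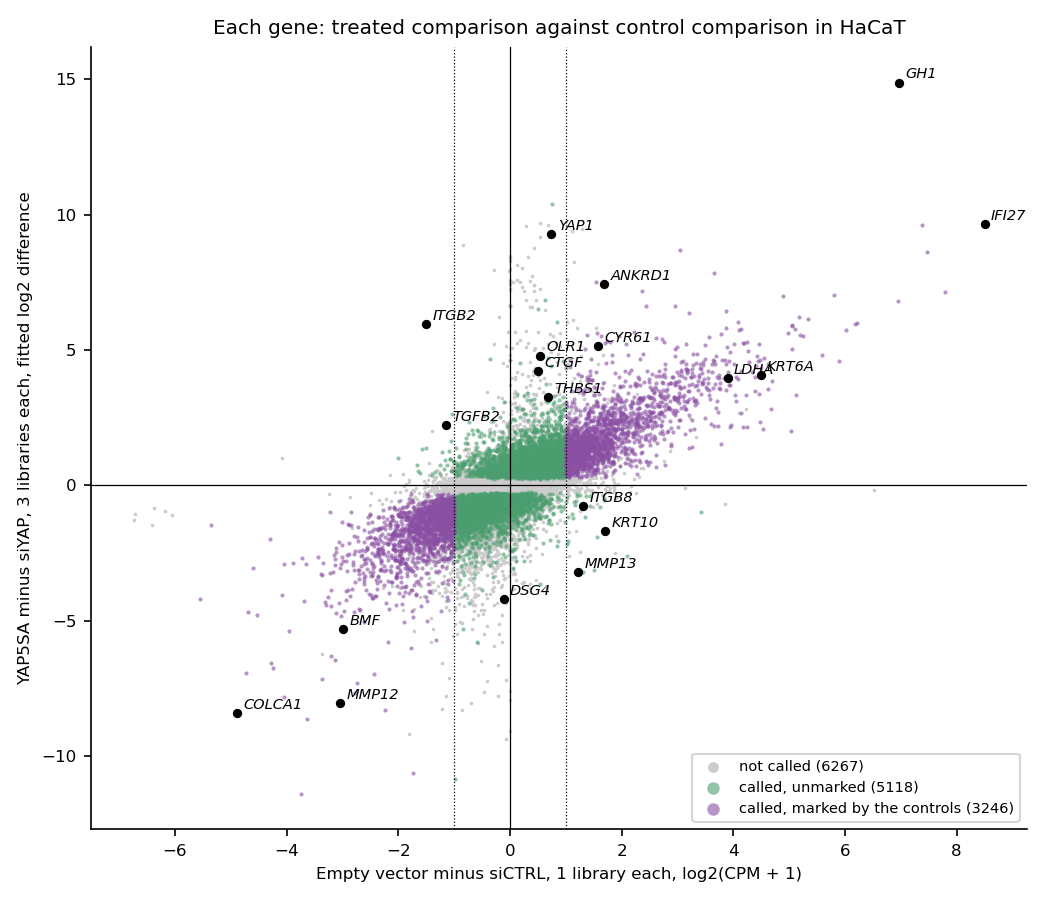
Fitted YAP5SA minus siYAP log2 difference (vertical axis, 3 libraries each) of every gene tested against the empty vector minus siCTRL difference on the log2(CPM + 1) scale (horizontal axis, 1 library each); dotted lines mark a control difference of 1. Green points are the 5118 called genes without a mark, purple points the 3246 with one, and grey points the 6267 genes not called. Most points run from lower left to upper right, and YAP1, CTGF, THBS1, OLR1 and DSG4 have control differences under 1.

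Among the YAP and TAZ target genes, 23 of 34 tested members were called higher and 4 lower with YAP5SA. These are 67.6% and 11.8%, beside 31.4% and 25.8% of all genes, and the median log2 difference was 0.70. The secreted and matrix proteins of the list had 7 of 8 called higher and the cytoskeletal and adhesion proteins 7 of 8. Members given by name alone, in any list, were picked with their values in view. The 4 lower were FSTL1, NUAK2, PTPN14 and IGFBP3, and 2 were called without siYAP replicate 1 or 3 or without YAP5SA replicate 3. In the controls the median difference of the 34 tested target genes was -0.01. Of the 23 higher members 16 carried no mark, and of the 4 lower members 2. CTGF, a secreted matricellular protein, was at 0.801, 0.478 and 0.811 CPM with siYAP, 0.873 in siCTRL, 1.67 with the empty vector and 9.49, 15.2 and 15.3 with YAP5SA. Every YAP5SA library was above every other, and both controls lay just above the siYAP libraries (log2 difference 4.23, SE 0.308, adjusted p = 6.14e-06). ANKRD1, a nuclear and sarcomeric ankyrin repeat protein, was at 0.877, 1.86 and 1.04 CPM with siYAP, 1.97 in siCTRL, 8.56 with the empty vector and 102, 315 and 220.3 with YAP5SA. Both controls lay between the triplicates, and the gene rose (log2 difference 7.43, SE 0.5, adjusted p = 4.21e-06). CYR61, a matricellular relative of CTGF, was at 3.32, 5.88 and 3.76 CPM with siYAP, 6.44 in siCTRL, 21.2 with the empty vector and 204, 104 and 141 with YAP5SA (log2 difference 5.13, SE 0.315, adjusted p = 2.86e-06). The control differences of 1.69 and 1.58 marked both, although the empty vector was far below YAP5SA. THBS1, the matrix glycoprotein thrombospondin 1, was at 314, 352 and 364 CPM with siYAP, 438 in siCTRL, 705 with the empty vector and 2484, 4036 and 3350.0 with YAP5SA and carried no mark (log2 difference 3.26, SE 0.19, adjusted p = 2.4e-06). Of the 4 lower members PTPN14, a phosphatase that retains YAP in the cytoplasm, had the largest difference (log2 difference -1.74, SE 0.123, adjusted p = 5.34e-06, marked). It was at 541, 512 and 649 CPM with siYAP, 408 in siCTRL, 134 with the empty vector and 164, 181 and 164 with YAP5SA.

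The promoters of 3 of these genes are shown because each holds the TEAD core. The windows run from 250 bases before to 50 bases after the gene start in RefSeq on GRCh38.p14, are printed 5′ to 3′ on the strand of the gene, and have the letters GGAATG in capitals. The search used GGAATG and its reverse complement CATTCC. In all, 14.0% of the 35116 promoter windows in the table held one of them (4928 windows). RefSeq windows matched 25 of the 35 target genes, under 80%, so a share over the target genes would be void and is not given. CTGF (CCN2 in RefSeq, chr6:131951323-131951622, minus strand) held the motif at -169, -104 and -95, counted from the gene start to the first base of the motif. ANKRD1 (chr10:90921038-90921337, minus strand) held it at -220 and -128, and THBS1 (chr15:39580829-39581128, plus strand) at -46. A match is a description of the letters and no evidence of binding.
CTGF: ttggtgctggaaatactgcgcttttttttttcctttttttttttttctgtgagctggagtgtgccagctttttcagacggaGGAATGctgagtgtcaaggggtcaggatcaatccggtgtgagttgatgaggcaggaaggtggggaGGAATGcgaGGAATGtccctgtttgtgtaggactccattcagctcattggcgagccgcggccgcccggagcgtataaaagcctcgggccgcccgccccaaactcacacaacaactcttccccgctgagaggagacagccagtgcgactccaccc
ANKRD1: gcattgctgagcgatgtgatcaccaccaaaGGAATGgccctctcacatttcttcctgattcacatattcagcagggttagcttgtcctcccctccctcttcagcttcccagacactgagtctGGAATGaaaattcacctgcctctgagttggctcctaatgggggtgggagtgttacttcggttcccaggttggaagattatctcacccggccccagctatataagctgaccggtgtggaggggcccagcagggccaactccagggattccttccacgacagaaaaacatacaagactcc
THBS1: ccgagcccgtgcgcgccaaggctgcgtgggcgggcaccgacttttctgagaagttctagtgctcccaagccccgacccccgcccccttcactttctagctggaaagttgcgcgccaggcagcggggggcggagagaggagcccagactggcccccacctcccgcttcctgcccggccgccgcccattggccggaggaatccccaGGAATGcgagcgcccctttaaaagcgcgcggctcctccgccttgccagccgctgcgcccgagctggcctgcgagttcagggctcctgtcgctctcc

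**Figure D2:**
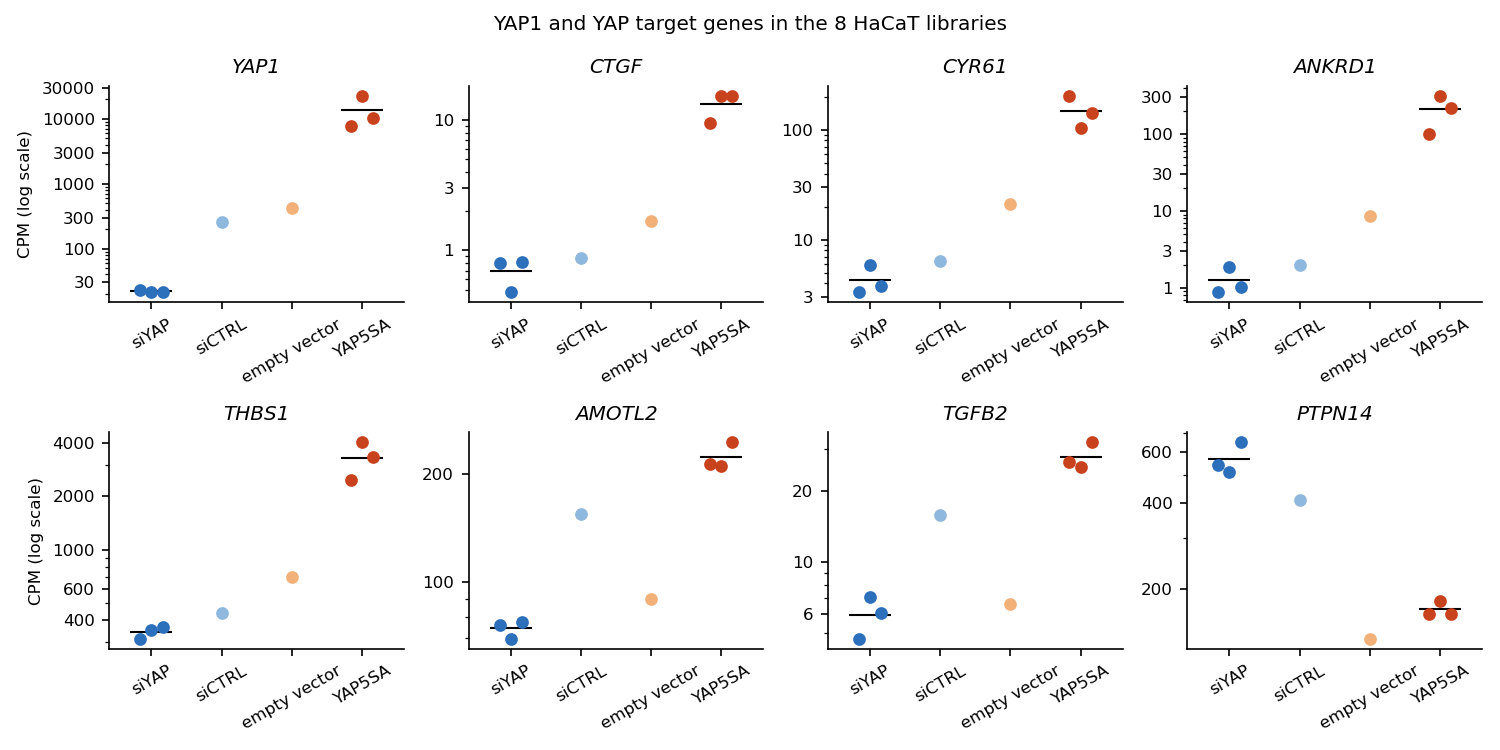
Level of YAP1 and 7 YAP target genes in the 8 HaCaT libraries, in CPM on a log scale; points are libraries and lines the means of the triplicates, with 1 library for each control. In CTGF, CYR61, ANKRD1 and THBS1 the 3 YAP5SA libraries lie above both controls and all siYAP libraries, and PTPN14 is low with both vectors.

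Several genes of the Hippo pathway itself were higher with YAP5SA. Of its kinases and upstream regulators 9 of 19 tested members were called higher and 3 lower (AMOT, TAOK1 and PTPN14), or 47.4% and 15.8% beside 31.4% and 25.8% of all genes, with a median of 0.32. None of the 9 higher members was marked. WWC1 (KIBRA), a scaffold that brings LATS to its activators, was at 35.8, 35.5 and 37.9 CPM with siYAP, 54.95 in siCTRL, 59.2 with the empty vector and 100.5, 110.4 and 131 with YAP5SA (log2 difference 1.65, SE 0.126, adjusted p = 7.97e-06). NF2, the Merlin tumour suppressor, was at 63.9, 75.2 and 59.1 CPM with siYAP, 72.4 in siCTRL, 84.3 with the empty vector and 132, 204 and 184 with YAP5SA (log2 difference 1.39, SE 0.173, adjusted p = 0.000119). In both, YAP5SA was above the controls. MOB1A, a LATS cofactor, was at 63.9, 65.8 and 64.5 CPM with siYAP, 132 in siCTRL, 149 with the empty vector and 142, 160.3 and 149.5 with YAP5SA (log2 difference 1.22, SE 0.099, adjusted p = 1.08e-05). Here both controls were near the level of YAP5SA, and siYAP was the low group. AMOTL2, LATS2 and TGFB2 were also picked with their values in view, since the siCTRL library exceeded the empty vector in each while YAP5SA exceeded siYAP. AMOTL2, an angiomotin that binds YAP, was at 76.2, 69.6 and 77.3 CPM with siYAP, 155 in siCTRL, 90.1 with the empty vector and 213, 211 and 245 with YAP5SA (log2 difference 1.58, SE 0.108, adjusted p = 4.58e-06). LATS2, the kinase that phosphorylates YAP, was at 24.6, 23.6 and 24.97 CPM with siYAP, 35.5 in siCTRL, 22.4 with the empty vector and 38.9, 51.1 and 46.7 with YAP5SA (log2 difference 0.90, SE 0.13, adjusted p = 0.000302). TGFB2, a TGF-beta ligand in the target list, was at 4.73, 7.08 and 6.06 CPM with siYAP, 15.8 in siCTRL, 6.61 with the empty vector and 26.5, 25.1 and 32.04 with YAP5SA (log2 difference 2.23, SE 0.188, adjusted p = 1.29e-05). In all of these the triplicates did not overlap. AMOT, the founding angiomotin, fell (log2 difference -1.35, SE 0.191, adjusted p = 0.000263). It was at 14.2, 17.1 and 17.5 CPM with siYAP, 10.6 in siCTRL, 6.41 with the empty vector and 6.09, 5.33 and 7.69 with YAP5SA, so that the empty vector was within the YAP5SA range.

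Among the YAP, TAZ, TEAD and VGLL factors, 4 of 9 tested were called higher (YAP1, TEAD1, TEAD2 and TEAD4) and 3 lower (TEAD3, VGLL3 and VGLL4). These are 44.4% and 33.3%, beside 31.4% and 25.8% of all genes. The median of -0.30 turned to 0.30 when no count filter was used and was -0.18 without YAP5SA replicate 2. TEAD4, a DNA-binding partner of YAP, was at 6.71, 5.54 and 4.83 CPM with siYAP, 10.2 in siCTRL, 15.1 with the empty vector and 25.5, 30.2 and 34.2 with YAP5SA (log2 difference 2.40, SE 0.182, adjusted p = 7.61e-06). It carried no mark, and both controls lay between the triplicates. The cofactors VGLL4, which competes with YAP for TEAD, and VGLL3 fell. VGLL4 was at 54.05, 52.4 and 55.6 CPM with siYAP, 53.5 in siCTRL, 13.8 with the empty vector and 13.9, 8.05 and 12.2 with YAP5SA (log2 difference -2.24, SE 0.193, adjusted p = 1.48e-05) and VGLL3 at 105, 100.1 and 120.3 CPM with siYAP, 82.95 in siCTRL, 38.8 with the empty vector and 47.1, 40.99 and 41.4 with YAP5SA (log2 difference -1.32, SE 0.12, adjusted p = 1.88e-05). Both were marked, with the empty vector within or below the YAP5SA range.

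In the list of EGF ligands and ERBB receptors 7 of 14 tested members were called higher and 2 lower. These are 50% and 14.3%, beside 31.4% and 25.8% of all genes. The median was 0.98 (0.62 without a count filter, 0.54 with more than 10 counts in each library). In the controls it was 0.90 on the log2(CPM + 1) scale. Of the ligands 5 of 7 were higher, 2 of the 4 receptors were lower, and 7 of the 9 called members were marked. AREG, the EGFR ligand amphiregulin, was at 2.098, 3.92 and 1.49 CPM with siYAP, 0.6003 in siCTRL, 16.9 with the empty vector and 40.4, 98.1 and 47.8 with YAP5SA (log2 difference 4.67, SE 0.446, adjusted p = 2.57e-05). The empty vector library stood between the siRNA libraries and the YAP5SA libraries. EREG (epiregulin) and NRG1 (neuregulin 1, a ligand of ERBB3) followed the same order, with log2 differences of 3.52 and 3.14. Their control differences were 2.54 and 2.08 on the log2(CPM + 1) scale. That scale is smaller for low genes and is not that of the fitted differences. With the control difference taken off in the model, EREG gave -0.828. The lower receptors were ERBB3 and ERBB2 (log2 differences -1.62 and -1.33). ERBB3 was at 220.1, 203 and 223 CPM with siYAP, 234 in siCTRL, 77.5 with the empty vector and 73.9, 68.7 and 67.1 with YAP5SA. Of the ERK feedback and immediate early genes 13 of 25 tested members were called higher and 4 lower, with a median of 0.83. These are 52.0% and 16%, beside 31.4% and 25.8% of all genes. The 4 lower were DUSP5, SPRED2, FOSL2 and JUND, and 8 of the 13 higher were marked. FOSL1, a subunit of the AP-1 factor, was at 0.648, 1.82 and 1.297 CPM with siYAP, 1.25 in siCTRL, 6.83 with the empty vector and 39.9, 50.5 and 54.3 with YAP5SA (log2 difference 5.29, SE 0.301, adjusted p = 2.17e-06). The empty vector was above siCTRL by 1.80 on the log2(CPM + 1) scale and well below YAP5SA. ETV5, an ETS factor induced by ERK signalling, and DUSP6, the phosphatase that inactivates ERK, rose by log2 differences of 5.29 and 3.75, with control differences of 2.77 and 3.27.

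The integrins, which hold basal cells to the basement membrane, moved in both directions. Of the subunits 6 of 17 tested members were called higher and 3 lower (ITGAV, ITGB4 and ITGB8), or 35.3% and 17.6%, close to the 31.4% and 25.8% of all genes. The median of 0.11 turned to -0.06 when no count filter was used and was 0.022 with all 16 libraries in the model. It was 0.057, 0.31 and 0.036 without siYAP replicate 1, 2 and 3 and 0.05 without YAP5SA replicate 2. ITGB1, the common beta subunit, was at 1008, 1077 and 938 CPM with siYAP, 1096 in siCTRL, 1145 with the empty vector and 1073, 1173 and 973 with YAP5SA, with overlapping groups (log2 difference 0.09, SE 0.117, adjusted p = 0.502). ITGA3, of the laminin receptor, was likewise uncalled at 241, 242 and 249 CPM with siYAP, 232 in siCTRL, 121 with the empty vector and 237, 249 and 239 with YAP5SA (log2 difference -0.01, SE 0.091, adjusted p = 0.921). Of its libraries the empty vector alone stood apart. ITGA6, the alpha subunit of the hemidesmosome, was at 499, 560.2 and 523 CPM with siYAP, 660.1 in siCTRL, 2133 with the empty vector and 1679, 1676 and 1465 with YAP5SA. It rose (log2 difference 1.61, SE 0.114, adjusted p = 5.49e-06), but the empty vector was above all other libraries. Its partner ITGB4 fell (adjusted p = 0.000413) and was at 344, 370.4 and 414 CPM with siYAP, 305 in siCTRL, 79.7 with the empty vector and 185, 153 and 226 with YAP5SA, with the empty vector lowest. Both were marked. ITGA5, the fibronectin receptor subunit, was at 12.3, 9.27 and 10.4 CPM with siYAP, 7.97 in siCTRL, 86.8 with the empty vector and 155, 206 and 169.9 with YAP5SA (log2 difference 4.05, SE 0.164, adjusted p = 9.27e-07, marked). ITGB2, known as a leukocyte subunit, was low throughout, at 0.153, 0 and 0.324 CPM with siYAP, 2.29 in siCTRL, 0.1603 with the empty vector and 11.7, 7.82 and 13.6 with YAP5SA. It rose without a mark (log2 difference 5.95, SE 0.558, adjusted p = 2.32e-05), and the fitted size depends on the prior count because siYAP was near 0. ITGB8, which activates latent TGF-beta, fell (log2 difference -0.78, SE 0.1, adjusted p = 0.000153) and was at 438, 489.5 and 454 CPM with siYAP, 105 in siCTRL, 264 with the empty vector and 266, 280.3 and 258 with YAP5SA. Its siCTRL library was lowest of all.

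Basement membrane and matrix genes were called in both directions. Of hemidesmosome and basement membrane genes 10 of 19 tested members were called higher and 6 lower (52.6% and 31.6%). Of collagens and other matrix genes 9 of 23 tested members were called higher and 6 lower (39.1% and 26.1%), and of matrix proteases and inhibitors 9 of 22 tested members were called higher and 7 lower (40.9% and 31.8%). The shares of the last 2 lists were near the 31.4% and 25.8% of all genes. Their medians were 0.38, 0.25 and 0.66, the last of which became -0.18 when every library had to hold more than 10 counts and 0.28 without YAP5SA replicate 2. The median of the collagens and other matrix genes was 0.49 with that count filter, 0.38 with the controls in the model, 0.42 without siYAP replicate 3 and 0.417, 0.154 and 0.385 without YAP5SA replicate 1, 2 and 3. NID2, the basement membrane linker nidogen 2, was at 3.89, 3.299 and 3.6 CPM with siYAP, 3.001 in siCTRL, 5.67 with the empty vector and 23.99, 26.1 and 26.5 with YAP5SA (log2 difference 2.83, SE 0.151, adjusted p = 1.71e-06). It was not marked, and both controls were far below YAP5SA. FN1 (fibronectin) was at 3.05, 2.34 and 3.92 CPM with siYAP, 1.25 in siCTRL, 16.4 with the empty vector and 47.9, 167 and 98.7 with YAP5SA (log2 difference 5.05, SE 0.46, adjusted p = 1.96e-05, marked). LOXL2, a collagen cross-linking enzyme, also rose with a mark (log2 difference 4.58, SE 0.251, adjusted p = 1.91e-06), and its empty vector library (25.7 CPM) was just below the lowest YAP5SA library (26.5 CPM). PLOD2, a lysyl hydroxylase of collagen, was at 5.61, 3.73 and 4.96 CPM with siYAP, 34.3 in siCTRL, 94.1 with the empty vector and 76.3, 75.3 and 89.1 with YAP5SA (log2 difference 4.07, SE 0.174, adjusted p = 1.17e-06, marked). The siYAP libraries were below both controls, and the empty vector was above YAP5SA. The falls were headed by MMP12, the macrophage metalloelastase, at 218, 213 and 233 CPM with siYAP, 76.3 in siCTRL, 8.37 with the empty vector and 1.19, 0.556 and 0.725 with YAP5SA (log2 difference -8.05, SE 0.237, adjusted p = 3.34e-07). Both controls lay between the triplicates, although the difference between them marked the gene. MMP13, a collagenase, was at 102, 104 and 101 CPM with siYAP, 39.4 in siCTRL, 93.3 with the empty vector and 21.8, 4.95 and 6.47 with YAP5SA. It fell (log2 difference -3.20, SE 0.489, adjusted p = 0.000429) while the empty vector library was close to the siYAP level.

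Of the actin cytoskeleton and focal adhesion genes 11 of 30 tested members were called higher and 5 lower (median 0.16, or 0.26 with more than 10 counts in each library). These are 36.7% and 16.7%, beside 31.4% and 25.8% of all genes, so that the share called higher was near that of all genes. The actin and myosin genes held 9 of the 11, and 8 of these 9 carried no mark. ACTN1 (alpha-actinin 1), which cross-links actin filaments at adhesions, was at 93.1, 106 and 104 CPM with siYAP, 112 in siCTRL, 206 with the empty vector and 474, 558 and 555 with YAP5SA (log2 difference 2.39, SE 0.117, adjusted p = 1.38e-06). FLNA (filamin A), another cross-linker, was at 204, 220.0 and 227 CPM with siYAP, 249.9 in siCTRL, 337 with the empty vector and 668, 950.2 and 1147 with YAP5SA (log2 difference 2.09, SE 0.188, adjusted p = 1.82e-05). In both genes the controls lay between the triplicates and no mark fell.

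Of the 8 keratins listed with the basal lineage factors 7 were called higher with YAP5SA, 6 of them marked. The 8 include KRT6A, KRT6B and KRT6C, which are keratins of wounded skin and not of the basal layer. In the list of simple epithelial keratins 4 of 6 tested members were called higher. The list of basal keratins and lineage factors had 10 of 21 called higher and 5 lower (KRT15, GRHL1, GRHL3, TFAP2A and MAF), with 8 of the 10 marked. These are 47.6% and 23.8%, beside 31.4% and 25.8% of all genes. KRT6A, a keratin of wounded and hyperproliferative skin, was at 67.97, 91.98 and 64.96 CPM with siYAP, 58.8 in siCTRL, 1344 with the empty vector and 1665, 998 and 1125 with YAP5SA (log2 difference 4.08, SE 0.237, adjusted p = 2.4e-06). Its empty vector library lay within the YAP5SA range. KRT15, a basal keratin often used for stem cells, fell without a mark (log2 difference -2.12, SE 0.348, adjusted p = 0.000647). It was at 924, 793 and 885 CPM with siYAP, 1511 in siCTRL, 929 with the empty vector and 326, 106 and 164 with YAP5SA. In the list of simple epithelial keratins KRT7, KRT8, KRT18 and KRT81 were called higher. The list median was 1.61 (0.78 with more than 10 counts in each library). KRT81 and KRT80, which are not keratins of simple epithelia, are counted in that list here and below. KRT80 was called lower, which it was not with a likelihood ratio test, without a count filter, with a replicate block, or without siYAP replicate 1, 2 or 3 or YAP5SA replicate 1 or 2. KRT8 was at 204, 229 and 201 CPM with siYAP, 236 in siCTRL, 436 with the empty vector and 931, 1391 and 1314 with YAP5SA (log2 difference 2.52, SE 0.166, adjusted p = 3.77e-06). KRT18, its partner in simple epithelia, was at 176, 220.2 and 161 CPM with siYAP, 229 in siCTRL, 358 with the empty vector and 823, 1084 and 1068 with YAP5SA (log2 difference 2.42, SE 0.165, adjusted p = 4.57e-06). Neither carried a mark. Of the suprabasal and cornified envelope genes 2 of 26 tested members were called higher and 9 lower, or 7.69% and 34.6%, beside 31.4% and 25.8% of all genes. The 2 higher were FLG and CSTA, of which 1 was called without siYAP replicate 1 or without YAP5SA replicate 3. The median was -0.59, against 0.66 in the controls, that is, in the opposite direction. It was -1.025 without YAP5SA replicate 1 and -0.385 without a count filter, and between 7 and 13 members were called lower with 1 library left out. IVL (involucrin, an envelope precursor) was at 498, 497 and 516 CPM with siYAP, 461 in siCTRL, 176 with the empty vector and 140.5, 25.9 and 52.97 with YAP5SA (log2 difference -2.78, SE 0.508, adjusted p = 0.00119, marked). KRT10, the suprabasal keratin, was picked in the same way. It was at 65.9, 55.7 and 59.7 CPM with siYAP, 45.2 in siCTRL, 149.8 with the empty vector and 29.7, 12.03 and 15.1 with YAP5SA, and it fell (log2 difference -1.67, SE 0.296, adjusted p = 0.00101), although the empty vector exceeded siCTRL by 1.71 on the log2(CPM + 1) scale.

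Cell junction genes had 9 of 27 called higher and 12 lower (median -0.27), 19 of the 21 without a mark. The 33.3% higher is near the 31.4% of all genes, and 44.4% were lower beside 25.8%. Without YAP5SA replicate 2 the median was -0.16. CDH3, the P-cadherin of basal keratinocytes, was at 205, 246 and 207 CPM with siYAP, 330.5 in siCTRL, 515 with the empty vector and 639, 572 and 583 with YAP5SA (log2 difference 1.45, SE 0.117, adjusted p = 1.03e-05) and carried no mark. CDH2, the N-cadherin, rose with a mark (log2 difference 4.25, SE 0.328, adjusted p = 8.29e-06). It was at 2.44, 4.54 and 4.05 CPM with siYAP, 1.53 in siCTRL, 20.3 with the empty vector and 43.9, 93.4 and 72.1 with YAP5SA. Claudin 1 (CLDN1), a tight junction protein, fell (log2 difference -2.35, SE 0.126, adjusted p = 1.71e-06, marked). It was at 721, 917 and 888 CPM with siYAP, 954 in siCTRL, 162 with the empty vector and 162, 171 and 160.0 with YAP5SA, with the empty vector within the YAP5SA range. PERP, a desmosomal protein, fell without a mark (log2 difference -1.03, SE 0.14, adjusted p = 0.000202), from 877, 1007 and 896 to 394, 538 and 423 CPM. Of the 5 epithelial to mesenchymal transition genes tested, SNAI2 and CDH2 were called higher, both marked, and S100A4 lower.

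**Figure D3:**
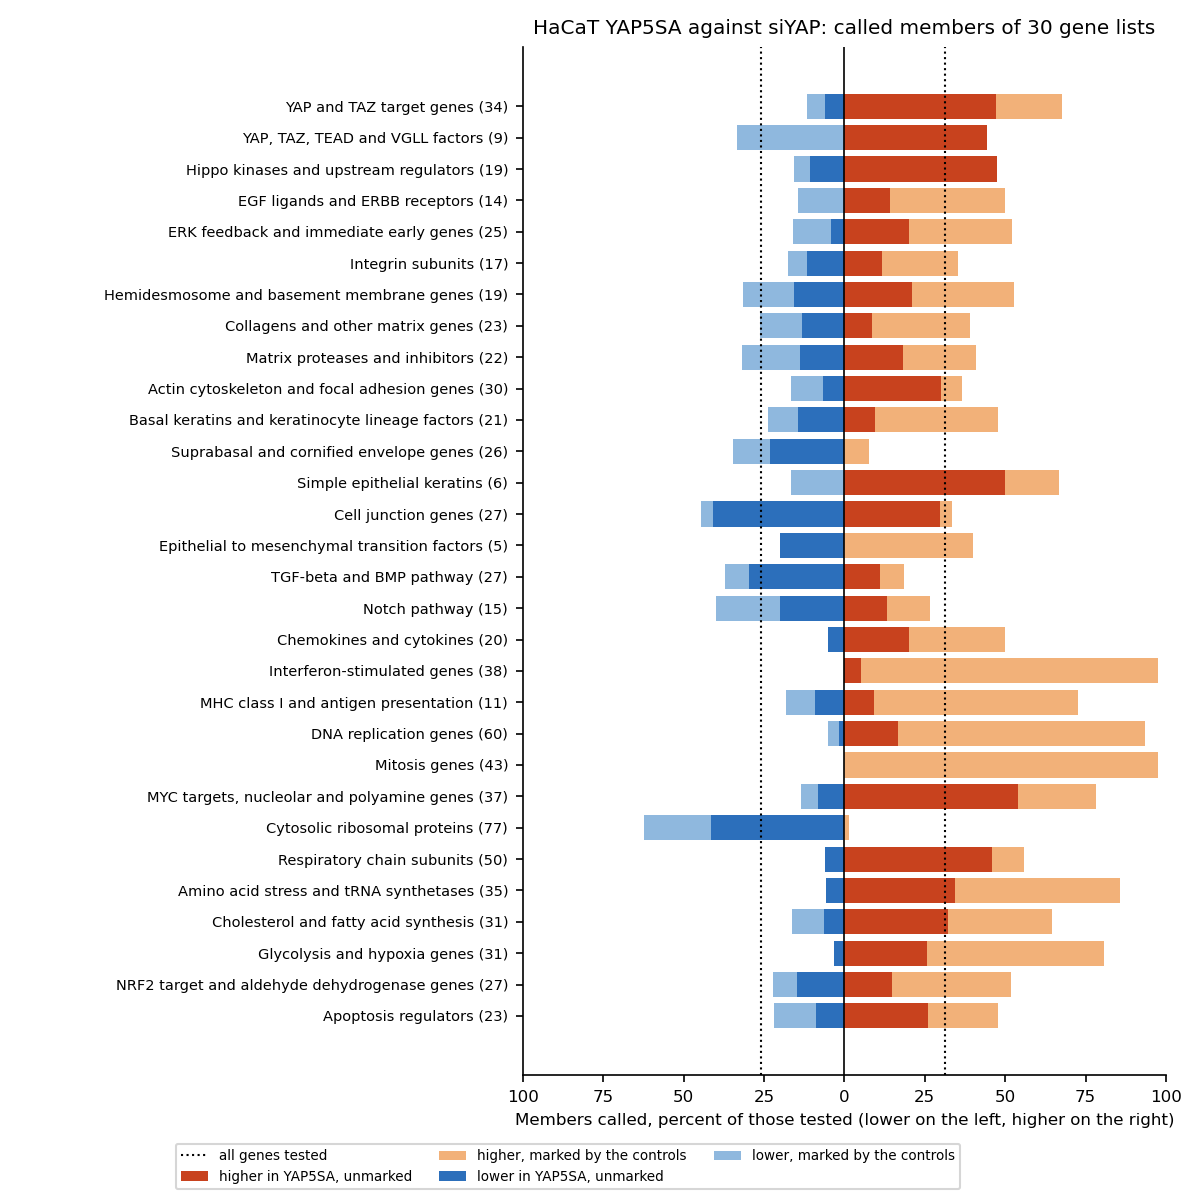
Members called in each of 30 gene lists as a percentage of the members tested (number in parentheses), lower with YAP5SA to the left and higher to the right; pale segments are members marked by the controls and dotted lines the shares over all genes tested (31.4% higher, 25.8% lower). Mitosis, interferon-stimulated and DNA replication genes are almost all higher and mostly marked, whereas the Hippo, actin, simple keratin and nucleolar lists hold mostly unmarked rises.

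The TGF-beta and BMP pathway had 5 of 27 members called higher (TGFB2, BMP4, INHBA, TGFBR1 and FST) and 10 lower (median -0.26), 8 of the 10 without a mark. These are 18.5% and 37.0%, beside 31.4% and 25.8% of all genes. The median was -0.074 without siYAP replicate 2, -0.15 without YAP5SA replicate 2 and -0.145 without a count filter. FST, the activin inhibitor follistatin, was at 0.381, 1.15 and 0.162 CPM with siYAP, 1.201 in siCTRL, 26.6 with the empty vector and 51.6, 191 and 112 with YAP5SA (log2 difference 7.84, SE 0.675, adjusted p = 1.47e-05, marked). INHBA, the activin A subunit, was at 5.38, 5.78 and 4.96 CPM with siYAP, 2.46 in siCTRL, 20.9 with the empty vector and 25.1, 49.7 and 25.8 with YAP5SA (log2 difference 2.65, SE 0.278, adjusted p = 4.51e-05, marked), so that the empty vector was just below YAP5SA. The coreceptor TGFBR3 fell (log2 difference -2.06, SE 0.186, adjusted p = 1.88e-05), with the empty vector library at 37.6 CPM within the YAP5SA range of 31.3 to 50.8. In the Notch pathway 4 of 15 were called higher (DLL1, HES2, HEY1 and NRARP) and 6 lower, or 26.7% and 40.0%. The median of -0.02 turned positive without siYAP replicate 3 (0.10), without YAP5SA replicate 2 (0.30) and under both other count filters (0.31 and 0.08).

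Interferon-stimulated genes were higher almost throughout, and the empty vector library was as high as YAP5SA. Of the chemokines and cytokines 10 of 20 tested members were called higher and 1 lower (IL18). Over all genes tested 31.4% were called higher and 25.8% lower. Of the 10 higher members 6 were marked. The list median was 3.15 (1.52 with more than 10 counts in each library, controls 0.64). IL6, an inflammatory cytokine, was at 0, 0.191 and 0 CPM with siYAP, 0.273 in siCTRL, 9.52 with the empty vector and 10.5, 37.5 and 20.6 with YAP5SA, with a control difference of 3.05. The fitted difference of IL6 (log2 difference 8.68, SE 0.826, adjusted p = 2.52e-05) depends on the prior count, as siYAP was at or near 0. LIF, a cytokine of the IL6 family, carried no mark and was at 5.07, 3.78 and 4.61 CPM with siYAP, 6.003 in siCTRL, 11.6 with the empty vector and 24.4, 46.6 and 27.1 with YAP5SA (log2 difference 2.86, SE 0.268, adjusted p = 2.29e-05). CXCL8 (interleukin 8) was at 0.915, 1.195 and 0.843 CPM with siYAP, 0.491 in siCTRL, 48.2 with the empty vector and 45.9, 82.7 and 47.9 with YAP5SA (log2 difference 5.92, SE 0.305, adjusted p = 1.52e-06, marked), with the empty vector within the YAP5SA range. Of the interferon-stimulated genes 37 of 38 tested members were called higher (97.4%) and 0 lower (median 4.36), the exception being IFITM2. Of the 37, 35 were marked, and the median difference of the list between the controls was 4.03. Their summed level was between 2176 and 2419 CPM with siYAP and between 16300 and 21150 with YAP5SA, with siCTRL at 2392 and the empty vector at 21610. IFI27, an interferon-induced mitochondrial protein, was at 1.07, 0.574 and 0.0973 CPM with siYAP, 0.0546 in siCTRL, 382 with the empty vector and 459, 395 and 501 with YAP5SA (log2 difference 9.65, SE 0.441, adjusted p = 1.23e-06). The antiviral GTPase MX2 was at 0.458, 0.287 and 0.227 CPM with siYAP, 0.218 in siCTRL, 203 with the empty vector and 212, 227 and 326 with YAP5SA (log2 difference 9.62, SE 0.295, adjusted p = 3.34e-07). IFI44L, another interferon-induced gene, was likewise under 1 CPM in all siRNA libraries, at 235 with the empty vector and at 209, 212 and 275 with YAP5SA. In MHC class I and antigen presentation, 8 of 11 were called higher (72.7%), 7 of them marked, and TAPBP and ERAP1 lower (18.2%).

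Genes of DNA replication and mitosis rose with YAP5SA, and the empty vector was above siCTRL in most of them too. In DNA replication 56 of 60 tested members were called higher (93.3%) and 3 lower (5.0%), beside 31.4% and 25.8% of all genes. The median was 2.36 (controls 1.99), and 46 of the 56 were marked. The 3 lower were the inhibitors RBL2, CDKN1B and CDKN2B, which restrain entry into S phase. In mitosis 42 of 43 were called higher (97.7%), all but SPC25, and none lower (median 3.40, controls 3.17). All 42 were marked. The summed level of the mitosis genes was between 775 and 1331 CPM with siYAP and between 8216 and 9014 with YAP5SA, with siCTRL at 1306 and the empty vector at 11350. The empty vector was thus above every YAP5SA library. PCNA, the sliding clamp of DNA polymerase, was at 85.6, 86.8 and 82.4 CPM with siYAP, 108 in siCTRL, 643 with the empty vector and 489, 569.6 and 602 with YAP5SA (log2 difference 2.71, SE 0.117, adjusted p = 1.19e-06). RRM2, a subunit of ribonucleotide reductase, was at 4.42, 7.27 and 3.18 CPM with siYAP, 9.82 in siCTRL, 389 with the empty vector and 231, 415 and 451 with YAP5SA (log2 difference 6.23, SE 0.376, adjusted p = 2.67e-06). Cyclin E1 (CCNE1) and E2F1, which drive entry into S phase, and cyclin E2 (CCNE2) all rose with a mark, by log2 differences of 4.52, 4.25 and 2.77. CCNE1 was at 0.267, 0.335 and 0.422 CPM with siYAP, 0.819 in siCTRL, 4.97 with the empty vector and 5.21, 11.4 and 7.28 with YAP5SA, and both controls lay between the triplicates. In CCNE2 the empty vector was within the YAP5SA range, at 67.8 CPM against 47.1, 92.6 and 92.03. CDC20, an activator of the anaphase-promoting complex, was at 6.06, 10.5 and 4.77 CPM with siYAP, 11.6 in siCTRL, 125 with the empty vector and 131, 181 and 176 with YAP5SA (log2 difference 4.53, SE 0.291, adjusted p = 3.38e-06). The cell cycle inhibitor CDKN2B fell (log2 difference -3.13, SE 0.193, adjusted p = 2.9e-06, marked). It was at 188, 143 and 182 CPM with siYAP, 199.9 in siCTRL, 42.3 with the empty vector and 24.8, 17.8 and 15.9 with YAP5SA.

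Among growth genes most rises carried no mark. MYC targets, nucleolar and polyamine genes had 29 of 37 called higher (78.4%) and 5 lower (13.5%), beside 31.4% and 25.8% of all genes. The 5 lower were MXD4, MXI1, MNT, AZIN2 and SAT1. The list median was 1.30 (controls 0.31), and 20 of the 29 carried no mark. The nucleolar members gave 17 of 18 called higher and none lower, 5 of them marked. NOP56, a core protein of small nucleolar ribonucleoproteins, was at 66.2, 66.8 and 64.05 CPM with siYAP, 127 in siCTRL, 329 with the empty vector and 259, 434 and 390.4 with YAP5SA (log2 difference 2.46, SE 0.184, adjusted p = 7.13e-06). NOLC1, their chaperone, was at 102, 115 and 100. CPM with siYAP, 150.3 in siCTRL, 424 with the empty vector and 479, 610.5 and 567 with YAP5SA (log2 difference 2.39, SE 0.128, adjusted p = 1.71e-06). Both NOP56 and NOLC1 were marked, with siCTRL above siYAP and the empty vector near YAP5SA. ODC1, the ornithine decarboxylase of polyamine synthesis, was at 7.399, 7.36 and 5.902 CPM with siYAP, 13.97 in siCTRL, 61.1 with the empty vector and 59.7, 139.5 and 98.8 with YAP5SA (log2 difference 3.85, SE 0.301, adjusted p = 8.87e-06, marked). RPTOR, the mTORC1 scaffold, rose without a mark, from 15.1, 15.01 and 17.8 to 23.6, 23.8 and 31 CPM (log2 difference 0.71, SE 0.155, adjusted p = 0.00318). AZIN2, an antizyme inhibitor, had a log2 difference of -1.22 (adjusted p = 0.0402) that lost its call without siYAP replicate 1, 2 or 3 or YAP5SA replicate 2 or 3, with adjusted p between 0.0531 and 0.114. Of the ribosomal protein genes 48 of 77 were called lower (62.3%) and 1 higher (1.3%), or 2 higher without YAP5SA replicate 1. Their median was -0.45 beside -0.65 in the controls. Their summed level was between 62610 and 73510 CPM with siYAP and between 44620 and 53200 with YAP5SA, with siCTRL at 87390 and the empty vector at 54590. The siCTRL library was the highest, and the empty vector was near YAP5SA. RPL28 of the large subunit fell most (log2 difference -1.69, SE 0.282, adjusted p = 0.000721) and RPS16 of the small subunit was the one that rose (log2 difference 1.02, SE 0.194, adjusted p = 0.0015). Both were marked, and counts of ribosomal protein genes are uncertain where processed pseudogenes share their sequence.

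Most metabolic genes listed were called higher, but most genes of fatty acid synthesis and most aldehyde dehydrogenases were not. Of the respiratory chain subunits 28 of 50 tested members were called higher (56.0%) and 3 lower (6.0%), beside 31.4% and 25.8% of all genes. The list median was 0.33. The 3 lower were NDUFB5, UQCRB and COX7C, and 5 were called lower without siYAP replicate 3. Of the amino acid stress and tRNA synthetase genes 30 of 35 were called higher (85.7%) and 2 lower (5.71%), with a median of 1.35. Of the cholesterol and fatty acid genes 20 of 31 tested members were called higher (64.5%) and 5 lower (16.1%), with a median of 0.997. Of the cholesterol genes alone 18 of 23 were called higher and 2 lower (median 1.11), whereas 2 of the 8 fatty acid genes were called higher and 3 lower (median -0.39). The summed level of the fatty acid genes was between 3966 and 5019 CPM with siYAP and between 1351 and 2783 with YAP5SA, with siCTRL at 4517 and the empty vector at 4222. Of the glycolysis and hypoxia genes 25 of 31 tested members were called higher (80.6%) and 1 lower (3.23%), with a median of 1.43. BNIP3L, the lower one, was not called without siYAP replicate 1, and 2 were called lower without YAP5SA replicate 3. Marks fell on 5, 18, 10 and 17 of the higher members of these 4 lists in turn. LDHA, the lactate dehydrogenase A subunit, was at 232, 322 and 244 CPM with siYAP, 359 in siCTRL, 5380.0 with the empty vector and 3255, 4200.0 and 4894 with YAP5SA (log2 difference 3.95, SE 0.206, adjusted p = 1.55e-06, marked), and its empty vector library was above every YAP5SA library. BNIP3, a mitophagy receptor induced by hypoxia, was at 3.01, 3.63 and 3.31 CPM with siYAP, 1.42 in siCTRL, 156 with the empty vector and 97.9, 186 and 241 with YAP5SA (log2 difference 5.72, SE 0.344, adjusted p = 2.65e-06, marked), with the empty vector within the YAP5SA range. PSAT1 of serine synthesis and WARS, the tryptophanyl-tRNA synthetase, which interferon gamma also induces, rose with a mark (log2 differences 3.72 and 3.57). So did IDI1 of the sterol pathway, at 44.9, 63.7 and 43.4 CPM with siYAP, 85.3 in siCTRL, 345 with the empty vector and 263, 291 and 327 with YAP5SA (log2 difference 2.54, SE 0.171, adjusted p = 4.23e-06). Of the NRF2 target and aldehyde dehydrogenase genes 14 of 27 tested members were called higher and 6 lower (51.9% and 22.2%), 5 of these 6 being aldehyde dehydrogenases, and of the apoptosis regulators 11 of 23 tested members were called higher and 5 lower (47.8% and 21.7%). PMAIP1 (NOXA), a BH3-only death gene, was at 19.8, 20.6 and 20.4 CPM with siYAP, 15.8 in siCTRL, 353 with the empty vector and 346, 574 and 381 with YAP5SA (log2 difference 4.42, SE 0.206, adjusted p = 1.27e-06, marked), with the empty vector within the YAP5SA range. BMF, another BH3-only gene, had the largest fall in that list, at 193, 165 and 189 CPM with siYAP, 115 in siCTRL, 13.7 with the empty vector and 8.01, 2.28 and 3.39 with YAP5SA (log2 difference -5.31, SE 0.411, adjusted p = 8.49e-06, marked). TNFSF10 (TRAIL), a death ligand, was at 678, 674 and 671 CPM with siYAP, 1009 in siCTRL, 254 with the empty vector and 113, 74.9 and 103 with YAP5SA (log2 difference -2.80, SE 0.16, adjusted p = 2.2e-06, marked).

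The largest unmarked rises at a logCPM above 3 were led by YAP1 itself. Next came OLR1, a scavenger receptor for oxidised lipoprotein, at 6.41, 9.42 and 5.55 CPM with siYAP, 33.1 in siCTRL, 48.6 with the empty vector and 171, 221 and 196 with YAP5SA (log2 difference 4.79, SE 0.216, adjusted p = 1.19e-06). TFPI2, a secreted protease inhibitor, was at 4.46, 2.39 and 4.18 CPM with siYAP, 21.1 in siCTRL, 16.3 with the empty vector and 60.3, 152 and 73.4 with YAP5SA (log2 difference 4.68, SE 0.399, adjusted p = 1.41e-05). In both, siYAP was below both controls and YAP5SA above both. Also among the 10 were RPSAP52, DNAJC6, THBS1, ADAMTS6, C4orf46 and LIF, with log2 differences of 4.34, 3.42, 3.26, 3.13, 3.08 and 2.86. RPSAP52 is a pseudogene of a ribosomal protein, so its count is uncertain. DNAJC6, the auxilin that uncoats clathrin vesicles, was at 2.403, 2.92 and 3.21 CPM with siYAP, 3.602 in siCTRL, 4.71 with the empty vector and 23.5, 36.04 and 31.6 with YAP5SA. ADAMTS6, a secreted metalloproteinase, was at 3.01, 2.01 and 1.49 CPM with siYAP, 2.07 in siCTRL, 3.98 with the empty vector and 7.598, 33.2 and 16.3 with YAP5SA, the YAP5SA libraries being far apart. The largest unmarked fall was DSG4, a desmosomal cadherin of hair and differentiating epidermis, at 406, 387 and 407 CPM with siYAP, 129.6 in siCTRL, 119.7 with the empty vector and 25.2, 18.4 and 22.04 with YAP5SA (log2 difference -4.19, SE 0.142, adjusted p = 4.67e-07). The controls were nearly equal, and siYAP lay above and YAP5SA below them. AGR2, a disulphide isomerase of secretory cells, was at 349, 461 and 313 CPM with siYAP, 200.2 in siCTRL, 141 with the empty vector and 40.8, 18.7 and 16.97 with YAP5SA (log2 difference -3.87, SE 0.346, adjusted p = 1.78e-05). CYP4F3, a hydroxylase of leukotriene B4, was at 56.7, 59.04 and 64.8 CPM with siYAP, 21.8 in siCTRL, 22.8 with the empty vector and 9.28, 7.67 and 4.92 with YAP5SA (log2 difference -3.04, SE 0.219, adjusted p = 5.81e-06). RNASE4, FLG-AS1, SESN3, NDRG4, MMP13, TMPRSS11E and ALDH3A1 completed the 10, with log2 differences of -3.63, -3.49, -3.40, -3.26, -3.20, -3.13 and -2.86. FLG-AS1 is antisense to filaggrin, and strand is not stated for the counting, so reads of the 2 genes cannot be told apart. NDRG4 was at 64.2, 89.7 and 66.2 CPM with siYAP, 13.8 in siCTRL, 8.53 with the empty vector and 10.7, 5.12 and 7.07 with YAP5SA, so that the siYAP libraries stood apart from all others. TMPRSS11E, an epithelial serine protease, was also highest with siYAP, at 25.7, 17.7 and 18.1 CPM with siYAP, 3.17 in siCTRL, 10.8 with the empty vector and 2.52, 2.401 and 2.098 with YAP5SA.

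**Figure D4:**
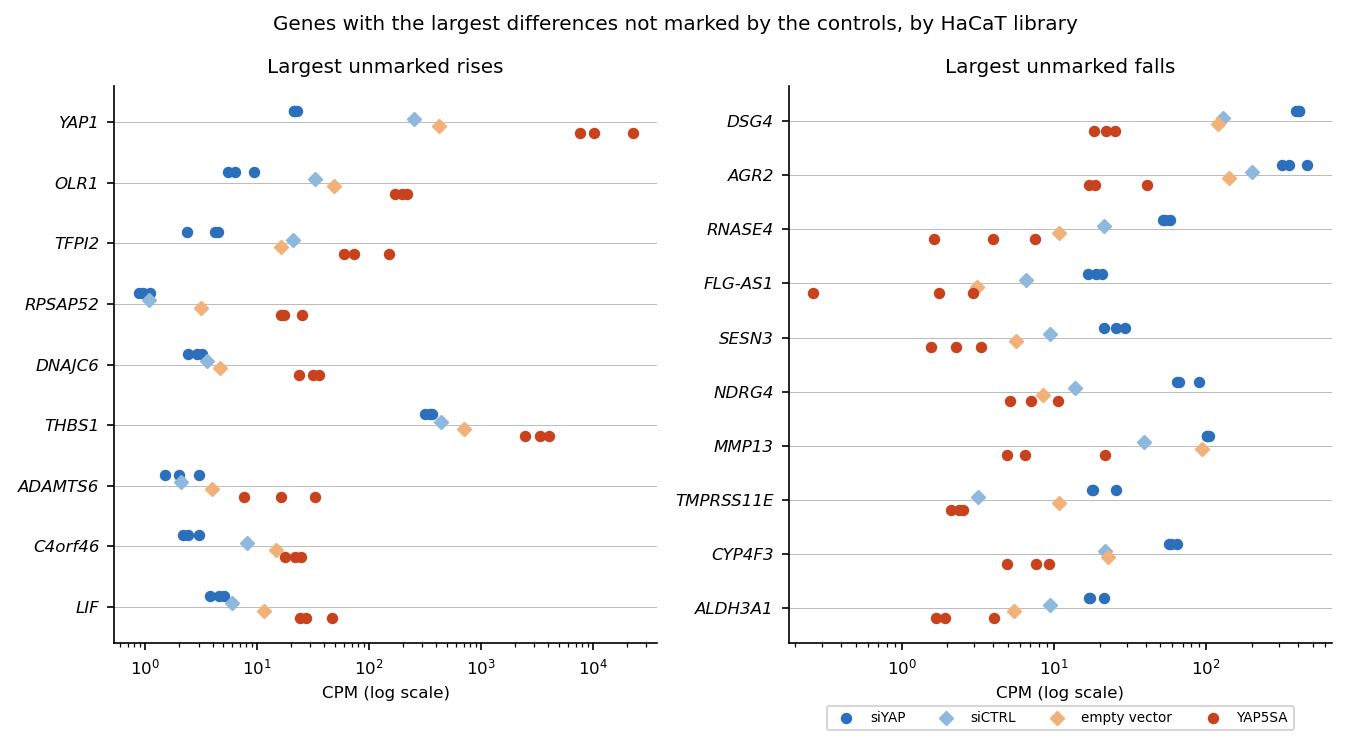
Of the 10 largest rises 9 (left) and the 10 largest falls (right) among called genes without a mark, at a logCPM above 3 and with groups that do not overlap, in CPM on a log scale; circles are siYAP and YAP5SA libraries and diamonds the single siCTRL and empty vector libraries. In OLR1, TFPI2, DSG4, AGR2 and CYP4F3 both controls lie between the triplicates, while in NDRG4 the siYAP libraries stand apart from all others.

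GH1, the growth hormone gene, had the largest fitted rise of all genes and was marked. It was at 0 in all siYAP libraries and in siCTRL, at 124 CPM with the empty vector and at 65.04, 203 and 88.8 with YAP5SA. Against the mean floor of 3 counts in each siYAP library (0.118 CPM on the TMM scale) the mean YAP5SA level of 119 CPM was at least 1000-fold higher, and the lowest YAP5SA library was at least 453-fold above the highest siYAP floor. In A431, too, GH1 was at 0 in all siRNA libraries and at 30.3 CPM in the empty vector and 20.1, 27.0 and 27.9 with YAP5SA. It has close paralogues, so the count is uncertain between them. Among marked falls, COLCA1 was at 42.2, 20.1 and 40.8 CPM with siYAP, 32.5 in siCTRL, 0.128 with the empty vector and 0.207, 0 and 0.0777 with YAP5SA. SCNN1G, a subunit of the epithelial sodium channel, was at 31.7, 36.8 and 30.9 CPM with siYAP, 29.4 in siCTRL, 0.834 with the empty vector and 0.156, 0 and 0.259 with YAP5SA. LINC01279, a non-coding RNA, was at 151, 83.2 and 189.5 CPM with siYAP, 121 in siCTRL, 3.62 with the empty vector and 1.14, 1.58 and 0.803 with YAP5SA. For COLCA1 the empty vector was within the YAP5SA range. For SCNN1G and LINC01279 it was above every YAP5SA library and far below all siRNA libraries. The fitted log2 differences of -8.39, -7.81 and -6.91 depend on the prior count for the first 2, whose YAP5SA libraries were at or near 0.

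The control difference can also be taken off in the model, as the YAP5SA minus siYAP difference less the empty vector minus siCTRL difference. With 1 library for each control, 439 of 14488 genes (3.03%) passed the call rule in edgeR, 245 higher and 194 lower, and 3404 had an unadjusted p under 0.05. Of the 439, 322 were also called in the same direction without the controls, and 300 of these carried no mark, while 49 were called in the opposite direction. The YAP and TAZ target genes gave 8 called higher and none lower, with a median of 0.84 beside 0.06 over all genes. CTGF gave 3.30 (SE 0.667, adjusted p = 0.0393) and CYR61 gave 3.41 (SE 0.581, adjusted p = 0.0259). ANKRD1 gave 5.31 (SE 1.02, adjusted p = 0.0346) and THBS1 gave 2.57 (SE 0.357, adjusted p = 0.0167). Among Hippo genes AMOTL2 gave 2.37 (SE 0.217, adjusted p = 0.0039) and WWC1 1.54 (SE 0.249, adjusted p = 0.0259). The actin list gave 5 called higher and none lower, with ACTN1 at 1.51 (SE 0.224, adjusted p = 0.0193), and the simple keratins 4 and none, with KRT8 at 1.63 (SE 0.317, adjusted p = 0.0364). OLR1 gave 4.24 (SE 0.396, adjusted p = 0.0039) and DSG4 -4.08 (SE 0.265, adjusted p = 0.00146). By contrast the interferon-stimulated genes had a median of -0.02 and the mitosis genes of 0.16, with 2 higher and 1 lower called in the first and none in the second. ITGA3, uncalled without the controls, gave 0.92 (SE 0.183, adjusted p = 0.038) and was called higher. For AREG the value was -0.14 (SE 1.07, adjusted p = 0.957), and for LDHA 0.04 (SE 0.367, adjusted p = 0.961).

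The same comparison in A431 called fewer genes. In a model of all 16 libraries, 8805 of 14673 genes (60.0%) were called in HaCaT and 5076 (34.6%) in A431. The difference between the lines itself was called for 5895 (40.2%), with HaCaT above A431 in 3120 and below it in 2775. Both lines called 4058 genes, which is 46.1% of the HaCaT calls and 79.9% of the A431 calls, 3531 of them in the same direction. YAP1 had a log2 difference of 8.78 in A431, and the difference between the lines was not called (HaCaT minus A431 0.44, SE 0.509, adjusted p = 0.518). For the YAP and TAZ target genes the A431 median was -0.11, with 5 called higher and 10 lower, and 22 of the 34 members differed between the lines. THBS1 had a log2 difference of -1.14 in A431, with a difference of 4.35 between the lines (SE 0.29, adjusted p = 4.81e-07). CYR61 had a log2 difference of 0.14 in A431, and the lines differed by 4.95 (SE 0.383, adjusted p = 1.23e-06). The mitosis genes rose in both lines, with medians of 3.35 in HaCaT and 0.93 in A431, while the A431 controls differed by a median of 0.62. Interferon-stimulated genes, with a median of 1.35 in A431, had a median control difference of 1.29 there. MMP12 and PCNA had A431 log2 differences of -7.15 and 2.13, and for neither was the difference between the lines called (-0.95, SE 1.43, and 0.52, SE 0.204).

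**Figure D5:**
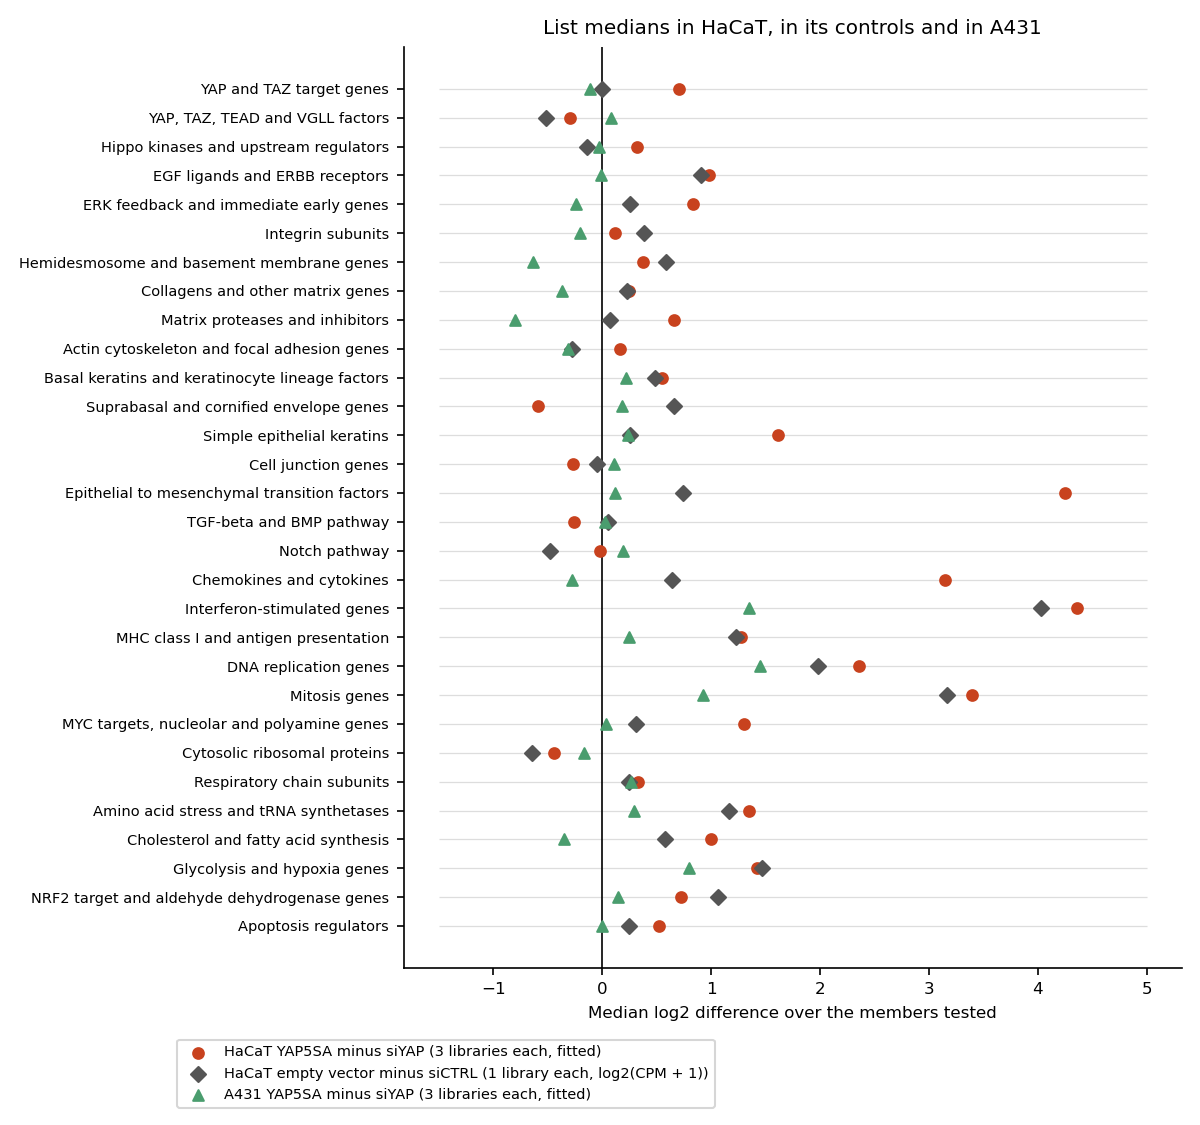
Median log2 difference of the tested members of each gene list for HaCaT YAP5SA minus siYAP (circles, fitted on 6 libraries), HaCaT empty vector minus siCTRL on the log2(CPM + 1) scale, which is smaller for low genes (diamonds), and A431 YAP5SA minus siYAP (triangles, fitted with all 16 libraries). Circles and diamonds lie close together for interferon, mitosis and glycolysis genes, and apart for YAP target, simple keratin and MYC and nucleolar genes.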

How the data were processed

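RNA sequencing was done by the authors in HaCaT and A431 cells. Per the study's methods and the submitters' notes, reads were trimmed to 75 bp and RSEM (version 1.2.21 in the methods, 1.2.11 in the notes) with bowtie2 assigned them to RefSeq gene models on hg19. The authors deposited estimated counts, 17.7% of them not whole, for 26229 gene symbols in 16 libraries, and these were rounded. Symbols turned into dates (28) and duplicated symbols (4) stayed in totals and tests and none is named. A few genes that the rule for named genes covers are not reported here.

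Genes with a mean of more than 10 counts in the 6 libraries were fitted with edgeR 4.0.16 (TMM, quasi-likelihood, R 4.3.3, 4 residual degrees of freedom), and adjusted p-values are Benjamini-Hochberg over all genes tested. The call rule follows the study. The between-line test used all 16 libraries. DESeq2 1.42.0 was an alternative. The pipeline was tested on simulated data in which far fewer genes changed than were called here. That test cannot show how the pipeline behaves under so wide a change. Groups come from the labels. The comparison, gene lists and naming rule were chosen with earlier results of these data known. The rule named genes around the study's experiment, the 10 largest unmarked rises and falls, the 4 largest marked ones, and up to 3 and 2 members per list and direction, and not every one is given. Counts limit precision, and intervals of counting error are not given. Promoters are from RefSeq. Figures used matplotlib 3.10.9.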

Additional observations from a re-analysis of the deposited data

Results flagged for a closer look

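The YAP5SA minus siYAP difference was not of the same size in HaCaT and in A431. A test of the difference between the lines itself, the interaction term of an edgeR quasi-likelihood model of all 16 libraries, called 5895 of 14673 genes (40.2%). Of 100 genes named here 80 were among them, with adjusted p of 0.0483 or less. Most were picked for their HaCaT difference, which is 1 side of this test, so that share cannot be set beside the 40.2%. For 30 of the 80 the log2 differences had opposite signs in the 2 lines, with no call in A431 required. Some of these A431 values were near 0, such as NOLC1 (-0.005), OLR1 (-0.016) and AREG (-0.085). Others were larger, such as THBS1 (-1.142) and CXCL8 (-2.042). The values are HaCaT minus A431 differences of the log2 differences, so that a negative value means a lower YAP5SA minus siYAP difference in HaCaT. Among the YAP partner and VGLL genes HaCaT was above A431 by 2.27 (TEAD4), and the difference was -1.62 (VGLL4) and -1.5 (VGLL3). Among YAP target genes HaCaT was above A431 by 3.69 (CTGF), 4.95 (CYR61), 6.33 (ANKRD1), 4.35 (THBS1), 1.39 (AMOTL2), 1.38 (LATS2) and 4.13 (TGFB2), and the difference was -0.997 (PTPN14). Among other Hippo regulators HaCaT was above A431 by 1.17 (WWC1), 0.97 (NF2) and 0.53 (MOB1A). Among EGF ligand, ERBB receptor and ERK genes HaCaT was above A431 by 4.71 (AREG), 4.21 (EREG), 3.03 (NRG1), 4.33 (FOSL1), 5.28 (ETV5) and 3.84 (DUSP6), and the difference was -1.47 (ERBB3) and -1.56 (ERBB2). Among integrins and basement membrane genes HaCaT was above A431 by 0.87 (ITGA6), 5.27 (ITGB2), 4.09 (ITGA5) and 3.703 (NID2), and the difference was -0.62 (ITGB8). Among matrix, protease and actin genes HaCaT was above A431 by 5.34 (FN1), 5.12 (LOXL2), 1.43 (PLOD2), 2.76 (ACTN1) and 2.03 (FLNA). Among keratins, involucrin and junction genes HaCaT was above A431 by 1.904 (KRT8), 1.93 (KRT18), 3.02 (KRT6A) and 1.25 (CDH3), and the difference was -3.53 (KRT15), -2.65 (IVL), -1.69 (KRT10), -1.06 (CLDN1) and -1.41 (PERP). 

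Among activin and TGF-beta genes HaCaT was above A431 by 6.65 (FST) and 3.85 (INHBA), and the difference was -1.46 (TGFBR3). Among cytokine and interferon-stimulated genes HaCaT was above A431 by 9.53 (IL6), 3.08 (LIF), 7.91 (CXCL8), 8.07 (IFI27), 7.68 (MX2) and 7.11 (IFI44L). Among cell cycle genes HaCaT was above A431 by 3.96 (CCNE1), 2.24 (E2F1), 2.66 (RRM2) and 3.22 (CDC20). Among growth and ribosomal genes HaCaT was above A431 by 2.502 (ODC1), 1.57 (NOP56), 2.35 (NOLC1) and 1.13 (RPS16), and the difference was -1.14 (RPL28). Among metabolic and apoptosis genes HaCaT was above A431 by 1.72 (WARS), 2.67 (IDI1), 2.26 (LDHA), 4.62 (BNIP3) and 4.05 (PMAIP1), and the difference was -5.42 (BMF) and -2.51 (TNFSF10). Among the largest unmarked rises HaCaT was above A431 by 4.76 (OLR1), 3.69 (RPSAP52), 3.85 (DNAJC6), 4.24 (ADAMTS6) and 1.204 (C4orf46). Among the largest unmarked falls the difference was -3.98 (AGR2), -2.501 (RNASE4), -2.58 (NDRG4), -5.88 (TMPRSS11E), -3.96 (CYP4F3) and -2.296 (ALDH3A1). Among the remaining genes the difference was -6.32 (COLCA1), -6.69 (SCNN1G) and -5.68 (LINC01279). For AMOT, CDH2, CDKN2B, DSG4 and GH1 the difference between the lines had no usable error, since at least 1 group of A431 triplicates was at 0. The change of YAP and the change of delivery cannot be told apart in either line. Groups of 3 libraries are too small for a test of single outlying libraries, and none was run.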

How the results depend on the processing

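The number of genes called was between 8145 and 9502 under the 9 other settings that kept the 2 groups (all 16 or all 8 HaCaT libraries in the model, RLE size factors, DESeq2, a likelihood ratio test, no count filter, more than 10 counts in each library, a replicate block, no limit on logCPM). In each of them no gene called in both changed direction. Leaving out 1 library gave 7243 to 8626 called genes, 4034 to 4707 of them higher and 3209 to 3919 lower, with 4217 to 4794 at a difference of at least 1. YAP1 lay between 8.70 and 9.57, marked genes numbered 3045 to 3263, lists with more members higher than lower 24 to 25, and genes that differed between the lines 5169 to 6266. Replicate numbers do not pair the libraries (correlations of same-numbered deviations 0.01, 0.09 and 0.044), and the replicate block gave 8145 called genes and a YAP1 difference of 9.11.

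Taking off the control difference moved most values. It left 439 called genes (245 higher, 194 lower, 415 at a difference of at least 1) and 12 lists with more members higher than lower, in place of 25. Among named genes other than YAP1 44 then lost their call, 35 kept it with its direction or stayed uncalled, and 20 changed sign: AREG -0.142, BNIP3 -1.058, CCNE2 -0.376, CLDN1 0.202, CXCL8 -0.689, ERBB2 0.47, EREG -0.828, GH1 -0.059 (no usable error, its siRNA libraries being at 0), IFI27 -3.017, IFI44L -0.842, INHBA -0.447, ITGA3 0.92 (then called, adjusted p = 0.038), ITGA6 -0.085, ITGB4 0.931, KRT6A -0.438, LOXL2 -0.487, MX2 -0.22, PMAIP1 -0.067, PSAT1 -0.32 and RPL28 0.284. List medians that changed sign were those of TEAD and VGLL factors (0.613), integrins (-0.127), basal keratins (-0.153), junctions (0.014), epithelial to mesenchymal transition (-0.683), Notch (0.508), interferon-stimulated genes (-0.017), ribosomal proteins (0.172), the respiratory chain (-0.053), amino acid stress (-0.067) and NRF2 targets (-0.4). The model for this holds 1 library per control, whose spread is assumed to be that of the triplicates. Marks fell on 5119 called genes at a control difference of 0.58 and on 5397 where the control difference was at least 0.5 of the treated one.

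Without a count filter the medians of TEAD and VGLL factors, integrins and Notch were 0.304, -0.063 and 0.313, and with more than 10 counts in each library those of proteases and Notch were -0.18 and 0.079. ITGA3, not called under these settings, was at 0.034 without a filter and between -0.026 and 0.014 with 1 library left out, and the Notch median between -0.22 and 0.296. With no limit on logCPM 16 chemokines and cytokines and 4 epithelial to mesenchymal transition genes were called higher. The cause of these changes was not tested.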
